A study of Mus musculus with 37 samples.

Results

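The transcripts examined here encode the potassium and water channels of the astrocyte endfoot and the protein complex that anchors them. They are Kcnj10, Kcnj16, Aqp4, Dtna, Dag1, Dmd and Trpv4, taken by gene symbol from both tables of expression values. These 7 genes were all found among the 21975 genes of each table. Values are TPM, a measure of a transcript's abundance scaled to its length and to the total of its library. Astrocytes were isolated with magnetic beads against ACSA-2, an antigen on the sodium pump subunit encoded by Atp1b2, from the cortex of male CD1 mice (the labels give the genotype as WT CD31). Mice had received either severe controlled cortical impact (CCI), a unilateral contusion of the cortex, or sham surgery, with craniectomy but no impact. All carried EEG electrodes, and the cortex was taken at 4 months. Injured mice were divided by EEG and video into those with post-traumatic epilepsy (PTE+) and those without (PTE-). The ipsilateral cortex gave 5 sham, 10 PTE- and 4 PTE+ libraries and the contralateral cortex 5 sham, 9 PTE- and 4 PTE+ libraries. The 37 libraries came from 20 mice, of which 17 (5 sham, 9 PTE- and 3 PTE+) gave both hemispheres. The paper states that a PTE+ animal was left out for low correlation and a PTE- animal for missing sequencing data. It does not name the libraries concerned. Sham mice thus shared the craniectomy, the electrodes and the recording with the injured mice, so that comparisons with sham are about the impact and what followed it.

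Astrocyte endfeet ensheath cerebral vessels and line the glia limitans at the brain surface. Kir4.1, the inward rectifier encoded by Kcnj10, carries potassium taken up from around active neurons, either alone or together with Kir5.1, encoded by Kcnj16. Aquaporin-4, encoded by Aqp4, lets water cross the same membrane. Both channels are held at the endfoot by the dystrophin-associated complex: dystroglycan (Dag1) spans the membrane and binds laminin and agrin of the basal lamina, dystrophin (Dmd, in astrocytes mostly the short isoform Dp71) links it to actin, and α-dystrobrevin (Dtna) belongs to its cytoplasmic part. TRPV4 is a calcium-permeable channel that opens on cell swelling, warmth and certain lipids. Loss of perivascular aquaporin-4 and of Kir4.1 is a known feature of epileptic tissue, which raises the question of whether these transcripts differed with injury, with epilepsy or between hemispheres.

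The Ensembl identifiers were ENSMUSG00000044708 for Kcnj10, ENSMUSG00000051497 for Kcnj16, ENSMUSG00000024411 for Aqp4, ENSMUSG00000024302 for Dtna, ENSMUSG00000039952 for Dag1, ENSMUSG00000045103 for Dmd and ENSMUSG00000014158 for Trpv4. On GRCm38, Kcnj10 lies at chr1:172341210-172374085 (plus strand), Kcnj16 at chr11:110968033-111027968 (plus strand), Dag1 at chr9:108204634-108263958 (minus strand), Dmd at chrX:82948870-85206141 (plus strand) and Trpv4 at chr5:114622152-114658421 (minus strand). Aqp4 and Dtna both lie on chromosome 18. Values are for whole genes, so that the isoforms of Dmd and Dtna were not told apart. An antisense gene overlaps exons of Dtna and had no row of its own in the tables.

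Libraries differed in ways that bear on these genes. Between 15599 and 18534 genes were above 0 TPM in 36 libraries, and 10727 in the ipsilateral library of PTE- mouse 9_14, which also had the lowest Kcnj16, Dtna, Dmd and Trpv4 of all. The 5 astrocyte reference genes Slc1a3, Slc1a2, Aldh1l1, Aldoc and Atp1b2 were above 250 TPM in every library. Markers of other cells were also found in all libraries. The 7 endothelial markers summed to between 261.6 and 1971 TPM, the 5 mural markers to between 671.6 and 4445 TPM and the 8 oligodendrocyte markers to between 519 and 4451 TPM. Itgam (microglia) and Cldn11 (oligodendrocytes) exceeded 5 TPM in 2 libraries each, while Mbp was never below 114.5 TPM. Mouse names begin with 8 or 9, a prefix whose meaning is not given. Names beginning with 8 made up 2 of 5 sham, 4 of 10 PTE- and 1 of 4 PTE+ ipsilateral libraries, and 2 of 5, 4 of 9 and 2 of 4 contralateral libraries. The numbers of reads behind these values are not known, since TPM keep no depth.

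Aqp4 was the most abundant of the 7 transcripts and Trpv4 was barely detected. Over the 37 libraries the mean level of Aqp4 was 647 ± 149 TPM (SD), which placed it above 99.1% of the 20635 genes detected in any library. Dtna followed with 139 ± 24.2 TPM, Kcnj10 with 103 ± 35.3 TPM, Dmd with 102 ± 33.0 TPM, Dag1 with 95.9 ± 33.8 TPM and Kcnj16 with 67.6 ± 24.1 TPM. Trpv4 averaged 2.24 ± 1.46 TPM and ranged from 0 to 6.30 TPM. TPM are scaled to transcript length, so that these levels can be set beside each other. Aqp4 exceeded Dtna in 37 of 37 libraries and Dtna exceeded Kcnj10 in 33. Kcnj10 exceeded Dmd in 18 of 37 and Dmd exceeded Dag1 in 23 of 37, so that these 3 neighbours did not differ beyond their spread. Dag1 was above Kcnj16 in 30 libraries, and Kcnj16 above Trpv4 in all 37. Trpv4 never reached a group mean of 5 TPM, the minimum for testing, and 6 of the 7 genes were therefore tested in every comparison.

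**Figure D1:**
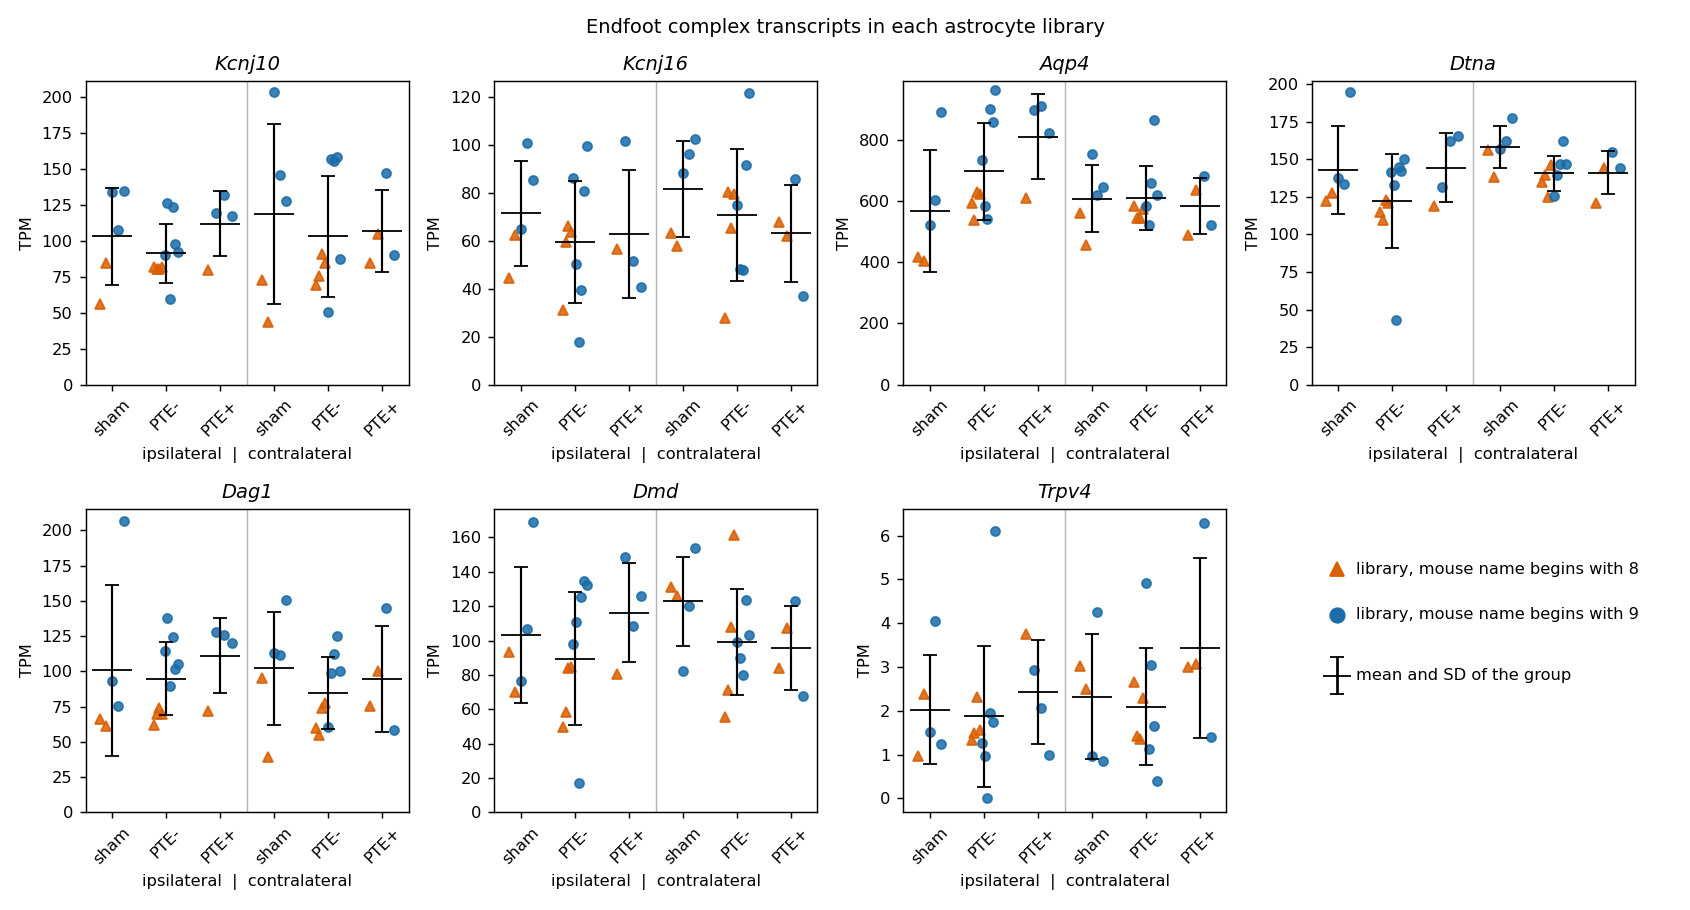
TPM of each of the 7 genes (vertical axes, each starting at or just below 0) in every library of the sham, PTE- and PTE+ groups of both hemispheres, with the mean and SD of each group in black. Ipsilateral Aqp4 rises above its sham mean of 568.3 TPM in most injured libraries, whereas groups overlap widely for the other genes; triangles and circles mark mouse names beginning with 8 and 9.

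Injury was first compared with sham in the ipsilateral cortex. Aqp4 was higher in injured mice before adjustment for the number of genes. It measured 417, 404, 523, 605 and 892 TPM in sham mice 8_15, 8_16, 9_9, 9_10 and 9_11. PTE- mice ranged from 539 to 964 TPM with a median of 627 TPM. The PTE+ mice 8_10, 9_17, 9_18 and 9_19 had 610, 900, 910 and 825 TPM. Every injured library was above the sham median, but sham mouse 9_11 was higher than 10 of the 14, so that the groups overlapped. The means were 568.3 ± 198.5 TPM (SD, n = 5) in sham and 730 ± 156 TPM (n = 14) in injured mice. The difference was 0.39 on the log2(TPM + 1) scale (SE 0.17, 95% interval 0.03 to 0.75). A gene was called when its unadjusted p in limma, a linear model fitted across all genes, was under 0.05 and its change was at least 1.2-fold, the rule of the study. Aqp4 passed it, with an exact permutation p of 0.0498 (two-sided), but not after adjustment over the 10434 genes tested (Benjamini-Hochberg, limma, adjusted p = 1). Of those genes 1.62% were called, and 1 of the 6 tested members.

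Aqp4 lost its call when any one of sham mice 8_15, 8_16 or 9_9 was left out, with log2 differences of 0.30, 0.29 and 0.38. Without sham mouse 9_11 the difference was 0.57. Within mice whose names begin with 8 it was 0.54 (5 injured and 2 sham libraries) and within those beginning with 9 it was 0.27 (9 and 3 libraries), so that the direction was shared by both. Other cells moved with this comparison. All 8 oligodendrocyte markers had a lower mean in injured than in sham ipsilateral libraries, with a median sum of 1349 TPM (range 774 to 2308) against 3072 TPM (519 to 4451), and so did 7 of the 8 microglial markers, although the median of the microglial sum was 196 TPM in injured and 155 TPM in sham libraries. Neuronal markers had a lower mean in injured libraries in 6 of 7 cases. Other markers moved in the direction of Aqp4, namely 4 of 4 fibroblast and 3 of 3 ependymal markers. The ependymal markers were 0.88 higher on average on the log2(TPM + 1) scale in injured than in sham libraries, with sums of 36.55 to 413.5 TPM (median 176) against 16.4 to 245 TPM (median 130). The part of these in the difference of Aqp4 was not tested. When each library was centred on the 5 astrocyte reference genes, the difference of Aqp4 was 0.44. In libraries from many cells, a change in RNA per cell and a change in the number of cells cannot be told apart.

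Compared one group at a time, the ipsilateral log2 difference of Aqp4 from sham was 0.33 in PTE- mice (SE 0.19, exact permutation p = 0.129) and 0.56 in PTE+ mice (SE 0.23, exact permutation p = 0.0635, where the smallest possible is 0.0079). In limma the latter was called (adjusted p = 1) and the former was not, but this depended on the setting. Aqp4 in PTE- mice was also called with median centring (0.32), astrocyte reference centring (0.42), array weights (0.50) or the first digit of the mouse name as a term (0.33), and the call of Aqp4 in PTE+ mice was lost with quantile normalization (0.54). The 2 values share the sham libraries. The call in PTE+ mice was lost without any one of PTE+ mice 9_17, 9_18 and 9_19 or sham mice 8_15, 8_16 and 9_9, at differences between 0.45 and 0.54. In PTE- mice Aqp4 became called without sham mouse 9_11, at 0.51, where 261 of all 10386 genes tested were called. Dag1 joined Aqp4 in PTE+ mice without sham mouse 9_11, where 1038 of all 10434 genes tested were called. No other member was called in either comparison with all libraries, beside 1.54% of genes for PTE- and 1.56% for PTE+ mice against sham.

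The remaining ipsilateral members did not pass the rule between injured and sham mice. For Kcnj10, sham mice had 55.9, 84.2, 134, 107 and 135 TPM (in the order above) and the injured mice ranged from 59.2 to 132 TPM with a median of 91.2 TPM. The injured range lay wholly within the sham range. The log2 difference of Kcnj10 was -0.05 (SE 0.19, 95% interval -0.45 to 0.35), so that a change of the size found for Aqp4 lay outside the interval on the upper side and within it on the lower side. Its partner Kcnj16 was 71.6 ± 21.9 TPM in sham (n = 5) and 60.4 ± 24.9 TPM in injured mice (n = 14), a difference of -0.32 (interval -0.95 to 0.32). Among the anchoring proteins, Dtna differed by -0.19 (interval -0.63 to 0.25), Dag1 by 0.09 (-0.40 to 0.59) and Dmd by -0.17 (-0.92 to 0.57). Sham mouse 9_11 had the highest ipsilateral Dtna and Dag1 and Dmd of all libraries, at 195, 207 and 169 TPM. These intervals include a 1.2-fold change in either direction for Kcnj10, Kcnj16, Dag1 and Dmd, and a 1.2-fold fall for Dtna. Such changes were thus not excluded here.

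Epileptic and non-epileptic injured mice were then compared in the ipsilateral cortex. The 6 tested members were each higher on average in PTE+ than in PTE- mice, and none was called, beside 0.573% of the 10473 genes tested. The median difference was 0.27 over the members and 0.12 over all genes tested. None of the 6 reached an unadjusted p of 0.05 in limma, and the smallest exact permutation p was 0.14. Kcnj10 measured 79.2, 119, 132 and 117 TPM in PTE+ mice 8_10, 9_17, 9_18 and 9_19 and from 59.2 to 126 TPM (median 85.9) in the 10 PTE- mice. Its difference was 0.30 (SE 0.18, interval -0.09 to 0.68). Of these PTE+ mice, 3 carry names beginning with 9, and the single one beginning with 8 had the lowest level. Kcnj10 became called without that mouse, at 0.45, where 121 of all 10555 genes tested were called (60 of 10473 with all libraries). Within names beginning with 9 the difference was 0.36, and within those beginning with 8 it was -0.03 with 1 PTE+ library.

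Aqp4 differed by 0.23 between PTE+ and PTE- mice (interval -0.13 to 0.59), Dag1 by 0.24 (-0.23 to 0.71) and Kcnj16 by 0.14 (-0.66 to 0.93). Dtna differed by 0.29 (-0.25 to 0.84) and Dmd by 0.53 (-0.38 to 1.43). The last 3 rested in part on PTE- mouse 9_14, whose library stands apart. It held 42.8 TPM of Dtna, 16.8 TPM of Dmd and 17.95 TPM of Kcnj16, against medians of 128, 91.2 and 61.6 TPM in its group. Without it the differences were 0.13 for Dtna, 0.29 for Dmd and -0.03 for Kcnj16.

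**Figure D2:**
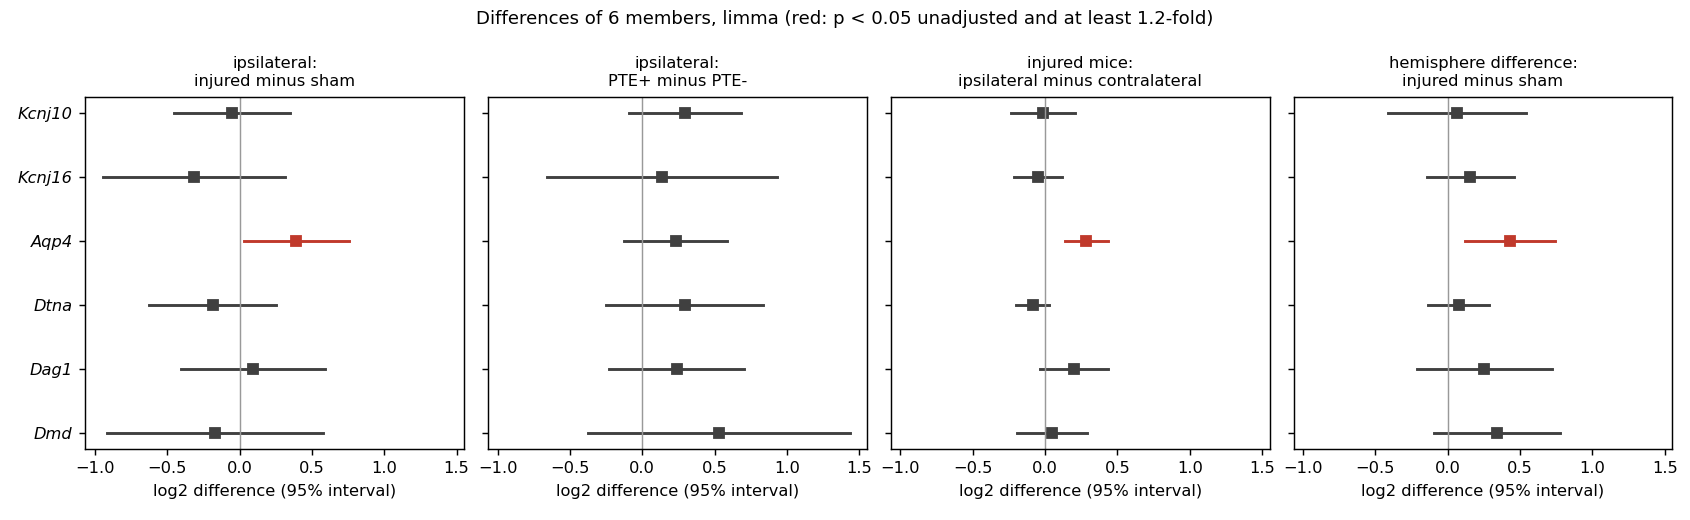
Log2 differences (horizontal axis) with 95% intervals for the 6 tested members in 4 comparisons, from limma on log2(TPM + 1). Aqp4 passed the rule (red) at 0.39 for ipsilateral injured against sham, 0.29 between the hemispheres of injured mice and 0.43 for the change of that difference from sham; the other intervals include 0.

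In the contralateral cortex the levels of Aqp4 overlapped between all groups. Sham mice 8_15, 8_16, 9_9, 9_10 and 9_11 had 561, 458, 755, 620 and 648 TPM. PTE- mice ranged from 522 to 867 TPM with a median of 584 TPM, and PTE+ mice had 489, 637, 683 and 524 TPM. The log2 difference between injured and sham mice was -0.01 (SE 0.12, interval -0.26 to 0.24), which does not reach the ipsilateral estimate. No member was called between contralateral injured and sham mice, where 4.05% of 10556 genes were called, nor for PTE- against sham (3.76%), PTE+ against sham (1.97%) or PTE+ against PTE- (2.79%). None of the 6 had an unadjusted p under 0.05 in limma in these 4 comparisons. Single libraries decided some of this. Against sham, Dag1 became called in injured and in PTE- mice without sham mouse 8_16. Dmd became called in injured, PTE- and PTE+ mice without sham mouse 9_9, and in PTE+ mice without PTE+ mouse 9_17. Calls over all genes rose in these fits too. Without sham mouse 8_16 they were 728 of 10664 for injured and 861 of 10671 for PTE- mice. Without sham mouse 9_9 they were 883 of 10592 for injured, 781 of 10584 for PTE- and 601 of 10686 for PTE+ mice. Without PTE+ mouse 9_17 they were 453 of 10582 for PTE+ mice. With all libraries they were 428, 397 and 210.

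Dtna came nearest to a change there. It was 158 ± 13.99 TPM in sham (n = 5) and 141 ± 11.8 TPM in injured mice (n = 13), and 4 of the 13 injured libraries were below every sham library. The log2 difference of -0.17 (SE 0.08) was under 1.2-fold, with an exact permutation p of 0.0198 before adjustment and a limma adjusted p of 0.978. It was -0.07 when each library was centred on its median. Over all 10556 genes the median difference was -0.07, which is of the same sign. Dmd averaged 123 ± 26.1 TPM in sham and 97.9 ± 28.2 TPM in injured mice (exact permutation p = 0.115, n = 5 and 13). Kcnj10 spanned 43.7 to 203 TPM within the sham group alone, wider than the 50.4 to 158 TPM of the injured mice. Dag1 was likewise spread over 39.6 to 150 TPM among sham mice. Trpv4 remained between 0.39 and 6.30 TPM in the contralateral libraries.

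Comparing the hemispheres of the same mouse removes differences between mice. In the 12 injured mice with both libraries, Aqp4 was higher ipsilaterally in 10. The PTE+ mice 8_10, 9_17 and 9_18 had 610, 900 and 910 TPM ipsilaterally against 489, 683 and 524 TPM contralaterally. In the 9 PTE- mice the log2 difference ran from -0.01 to 0.64 with a median of 0.17, and 7 were above 0. The mean difference over the 12 mice was 0.29 (SE 0.07, interval 0.14 to 0.44, exact sign-flip permutation p = 0.00244). It was called, with an adjusted p of 0.154 in limma over 10350 genes. Of these, 4.51% were called, and 0.213% passed an adjusted p of 0.05, Aqp4 not among them. Without PTE+ mouse 9_18, and likewise with array weights, the difference was 0.24, under 1.2-fold and no longer called. It was 0.13 in 5 mice with names beginning with 8 and 0.40 in 7 with names beginning with 9.

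Sham mice went mostly the other way. Aqp4 was lower ipsilaterally in 4 of 5, by -0.43, -0.18, -0.53 and -0.04 on the log2 scale in mice 8_15, 8_16, 9_9 and 9_10, and higher by 0.46 in mouse 9_11. The value of each of the 12 injured mice exceeded the median of the sham mice, though 2 exceeded mouse 9_11. The difference between hemispheres was 0.43 larger in injured than in sham mice (SE 0.15, interval 0.12 to 0.74, exact permutation p = 0.017, adjusted p = 0.647 in limma over 10695 genes). It was called, as were 6.50% of genes. Over all genes tested this comparison had a median of 0.08, and Aqp4 was no longer called after each library was centred on its median, at 0.31. The fit without the mouse as a block also left it uncalled, at the same 0.43. Leaving out any single sham or PTE+ mouse kept the call, with differences between 0.33 and 0.58.

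**Figure D3:**
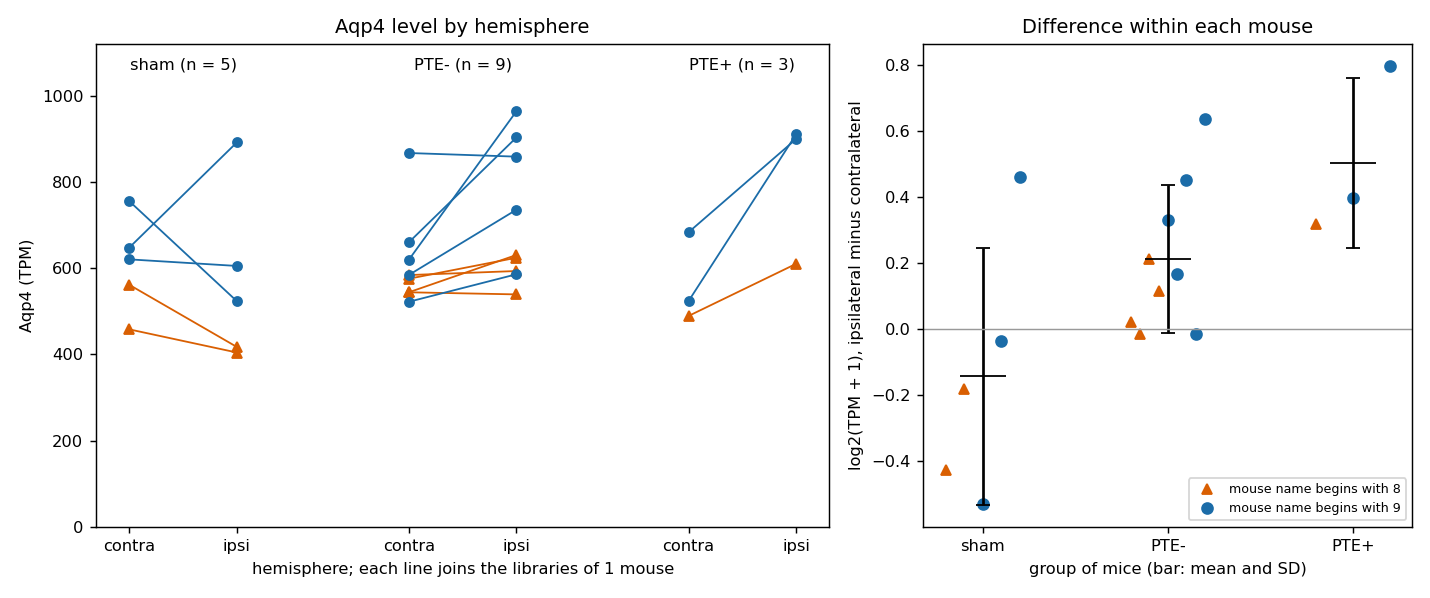
Left, Aqp4 (TPM) in the contralateral and ipsilateral libraries of each mouse, joined by a line; right, the ipsilateral minus contralateral difference on the log2(TPM + 1) scale with the mean and SD of each group. The difference is above 0 in 1 of 5 sham, 7 of 9 PTE- and 3 of 3 PTE+ mice.

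Between epileptic and non-epileptic mice the hemisphere difference of Aqp4 was 0.50 ± 0.26 (SD, n = 3) in PTE+ and 0.21 ± 0.22 (n = 9) in PTE- mice. The difference of 0.29 between them (SE 0.15, interval -0.03 to 0.61, exact permutation p = 0.0909) was not called. It became called without PTE+ mouse 8_10, at 0.38, as did Kcnj16, where 882 of all 10879 genes tested were called. Without PTE+ mouse 9_18 it was 0.14. With all mice no member was called in this comparison, beside 3.09% of genes (330 of 10683), and none reached an unadjusted p of 0.05 in limma.

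The other members showed no hemisphere difference that passed the rule. In injured mice the difference was -0.01 for Kcnj10 (interval -0.24 to 0.21), -0.05 for Kcnj16 (-0.21 to 0.12), -0.09 for Dtna (-0.20 to 0.03), 0.20 for Dag1 (-0.03 to 0.43) and 0.05 for Dmd (-0.19 to 0.29). Single mice varied more than these means. Kcnj10 was higher ipsilaterally in 5 of 12 injured mice and its difference ran from -0.68 to 0.83. A 1.2-fold fall or rise of Kcnj10, Kcnj16 or Dtna over the 12 mice lay outside these intervals, and for Dag1 and Dmd only a fall of that size did. Relative to sham mice, the hemisphere difference was 0.34 larger in injured mice for Dmd (interval -0.09 to 0.78), 0.25 for Dag1 (-0.21 to 0.72), 0.16 for Kcnj16 (-0.15 to 0.46), 0.08 for Dtna (-0.14 to 0.29) and 0.06 for Kcnj10 (-0.41 to 0.54). Dmd became called, at 0.35, when the first digit of the mouse name was a term of the model. In that fit 804 of all 10695 genes tested were called. In injured mice with both hemispheres, all 7 endothelial markers and 6 of 8 oligodendrocyte markers had a lower mean ipsilaterally, and 5 of 7 astrocyte markers a higher one. A higher ipsilateral mean was also found for 3 of 3 ependymal, 7 of 8 microglial, 3 of 3 oligodendrocyte precursor and 5 of 7 neuronal markers. The ipsilateral minus contralateral log2 difference was also averaged over each list. Signs were as for Aqp4 for ependymal (0.40 in injured, -0.69 in sham mice), astrocyte (0.18, -0.10), microglial (0.12, -0.10) and oligodendrocyte precursor markers (0.15, -0.07). Endothelial (-0.38, -0.41), mural (-0.11, -0.26) and fibroblast markers (-0.05, -0.58) were below 0 in both injured and sham mice. Neuronal markers were above 0 in both (0.14, 0.26). Oligodendrocyte (-0.49, 0.006) and erythrocyte markers (-0.50, 0.29) had the opposite signs. The part of these in the hemisphere difference of Aqp4 was not tested.

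Several members also differed with the first digit of the mouse name, which is not a condition of the study. This comparison, with the group as a further term, was added after the values were seen. Ipsilateral Dag1 lay between 61.2 and 73.98 TPM in the 7 mice with names beginning with 8 and between 75.7 and 207 TPM in the 12 beginning with 9, without overlap. Kcnj10 averaged 77.5 ± 9.68 TPM in the former and 111 ± 22.6 TPM in the latter, where 11 of 12 were above every mouse of the other kind. Aqp4 averaged 545.5 ± 96.9 and 770 ± 163 TPM. The log2 differences were 0.74 for Dag1 (SE 0.14), 0.47 for Kcnj10 (SE 0.14) and 0.46 for Aqp4 (SE 0.12), with adjusted p of 0.0125, 0.0473 and 0.0336 in limma. Of 10494 genes, 24.3% were called and 7.50% had an adjusted p under 0.05. The median over all genes was 0.11, and 2017 of the 2547 called genes were higher in mice with names beginning with 9.

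Contralaterally, Kcnj10 averaged 78.1 ± 17.9 TPM in 8 mice with names beginning with 8 and 132 ± 44.3 TPM in 10 beginning with 9. Dag1 averaged 72.0 ± 20.3 and 108 ± 30.4 TPM. The differences of 0.70 (SE 0.23) for Kcnj10 and 0.57 (SE 0.20) for Dag1 were called, with adjusted p of 0.106 and 0.127, beside 19.2% of 10539 genes called and 0% with an adjusted p under 0.05 (2325 had an unadjusted p under 0.05). Without PTE- mouse 9_14, ipsilateral Dtna (0.30) and Dmd (0.68) were called as well, so that 5 of the 6 tested members were. In that fit 4116 of all 10495 genes tested were called, and 3114 had an adjusted p under 0.05 in limma. Centring on the 5 astrocyte reference genes left Dag1 as the only ipsilateral member called, with Kcnj10 at 0.12 and Aqp4 at 0.11. Whether the digit marks a cohort, a day of isolation or something else cannot be told from the sources used here. With the digit as a term, Aqp4 became called for ipsilateral PTE- against sham (0.33) and its other calls held: 0.37 for ipsilateral injured against sham, 0.47 for PTE+ against sham, 0.29 between hemispheres and 0.43 for the change of that difference.

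**Figure D4:**
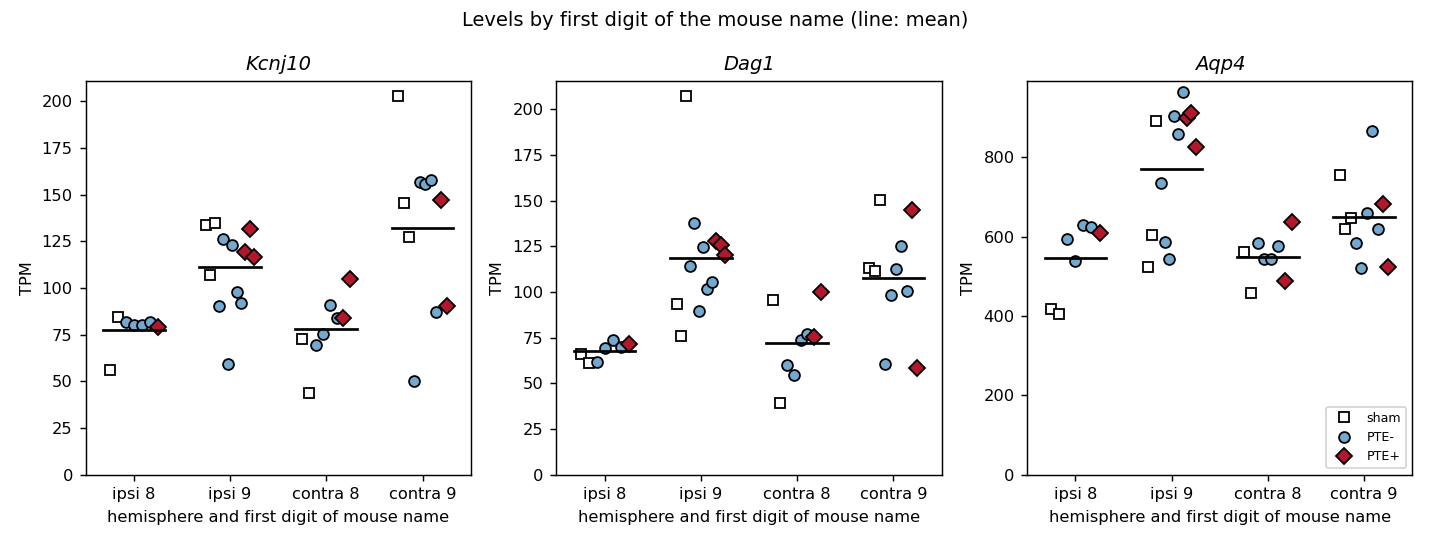
TPM of Kcnj10, Dag1 and Aqp4 (vertical axes from 0) in ipsilateral and contralateral libraries of mice whose names begin with 8 or 9; lines are means, and symbols mark sham, PTE- and PTE+. Ipsilateral Dag1 does not overlap between the 7 and the 12 libraries, and each group is found on both levels.

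Across the 37 libraries Kcnj10 followed Dag1 most closely among the members, with Pearson's r of 0.76 and Spearman's rho of 0.78 on log2(TPM + 1). Aqp4 also followed Dag1 (r = 0.70, rho = 0.74), and Kcnj10 and Aqp4 followed each other less (r = 0.53, rho = 0.53). The libraries share mice, so that these values are descriptions without a test. Within names beginning with 8 and 9 the r of Kcnj10 and Dag1 was 0.72 and 0.57, and that of Kcnj10 and Aqp4 was 0.51 and 0.22. Kcnj10 and Kcnj16, whose products form a common channel, had an r of only 0.30. Dtna and Dmd had an r of 0.83, or 0.64 without the ipsilateral library of PTE- mouse 9_14.

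The genes whose pattern was most like that of Kcnj10, among 10234 genes with a mean above 5 TPM, were Scd2 (r = 0.92), Ahcyl1 (0.92), Abat (0.91), Ncan (0.88) and Ndst1 (0.87). Scd2 encodes a fatty acid desaturase, Abat the enzyme that breaks down GABA and Ncan the proteoglycan neurocan. Those most like Aqp4 were Add3 (r = 0.82), Ptpra (0.81), Igsf11 (0.80), Pygb (0.80) and Pcx (0.79). Add3 encodes an adducin of the membrane skeleton, Pygb the brain glycogen phosphorylase and Pcx pyruvate carboxylase. These values are over all 37 libraries from 20 mice, which differ by group, hemisphere and the first digit of the mouse name.

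Genes related to the members, whether by complex, by pathway or by channel family, were listed in 7 groups of 76 genes, not all of them expressed at the endfoot. In the ipsilateral cortex 49 of them were tested, and none was called in the 4 comparisons of groups (limma, unadjusted p under 0.05 and at least 1.2-fold). Of all genes, 1.62% were called for injured, 1.54% for PTE- and 1.56% for PTE+ mice against sham, and 0.573% for PTE+ against PTE-. With shares this low, the absence of calls among 49 genes says little about the lists. Mlc1, which encodes a membrane protein of astrocyte junctions at vessels, was the one gene of the lists with an unadjusted p under 0.05 between injured and sham mice. It averaged 933 ± 81.0 TPM in sham (n = 5), 1086 ± 88.8 TPM in PTE- (n = 10) and 1102 ± 120 TPM in PTE+ mice (n = 4). Its log2 difference of 0.22 (SE 0.08) between injured and sham mice was under 1.2-fold (adjusted p = 1 in limma), and it is named after its values were seen.

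In the contralateral cortex, 14 other subunits of the dystrophin-associated complex were listed and 8 were tested in each comparison with sham. Sntb1, β1-syntrophin, was lower in PTE+ mice than in sham by -0.62 (SE 0.27, limma adjusted p = 1), at 4.58 ± 1.40 TPM (n = 4) against 7.51 ± 1.79 TPM (n = 5). Sntb2, β2-syntrophin, was lower in PTE- mice by -0.50 (SE 0.23, limma adjusted p = 0.961), at 3.67 ± 1.08 TPM (n = 9) against 5.52 ± 1.41 TPM (n = 5). In these comparisons both syntrophins passed the minimum of 5 TPM only in sham mice. They were thus tested through the group where they were higher. Of the 13 basal lamina ligands, Lama2, the laminin α2 chain, was lower in PTE- mice by -0.68 (SE 0.32, limma adjusted p = 0.961). Among 10 other TRP channels, Trpm3 was lower by -0.44 (SE 0.19) in all injured and by -0.56 (SE 0.24) in PTE+ mice, with limma adjusted p of 0.978 and 1. Over the 7 lists, 1 of 50 tested genes was called for injured, 2 of 50 for PTE- and 3 of 52 for PTE+ mice against sham, which is 2.00%, 4.00% and 5.77% beside the 4.05%, 3.76% and 1.97% of all genes.

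Between hemispheres, genes of the basal lamina were among those called. Lamb2, the laminin β2 chain, and Nid2, nidogen-2, were higher ipsilaterally in injured mice by 0.34 (SE 0.14) and 0.38 (SE 0.15), with limma adjusted p of 0.466 and 0.441. They were 2 of 9 tested ligands, whose median was 0.10 beside -0.01 over all genes. Over the 7 lists, 3 of 47 tested genes were called in this comparison (6.38%), beside 4.51% of all genes. Aqp1, the water channel of the choroid plexus, was higher by 1.33 (SE 0.46, limma adjusted p = 0.345), from 0 to 55.6 TPM across the libraries. In both PTE- and PTE+ mice, the means of Aqp1 and Nid2 passed the minimum of 5 TPM only ipsilaterally. Both genes were thus tested between hemispheres through the side where they were higher. Relative to sham mice the hemisphere difference was larger in injured mice for Lamb2 (0.59, SE 0.28), Lamc1 (0.54, SE 0.25), Nid2 (0.61, SE 0.28), Sntb1 (0.93, SE 0.32) and Ispd (0.46, SE 0.22), the last an enzyme of dystroglycan glycosylation. Their limma adjusted p were between 0.63 and 0.709. These were 5 of 51 tested genes (9.80%), beside 6.50% of all genes. In PTE+ against PTE- mice the hemisphere difference of Gjb6, connexin 30, was larger by 0.33 (SE 0.15, limma adjusted p = 0.995). Gjb6 was the only call among 51 tested genes (1.96%), beside 3.09% of all genes. Without PTE+ mouse 9_17 its value was 0.11. The calls of Aqp1 between hemispheres and of Sntb1 in the hemisphere difference of injured against sham mice held under every alternative run, and each other call of a listed gene named here was lost under at least 1 alternative. No gene of the other inward rectifier list was called in any of these comparisons, of 2 to 4 tested.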

How the data were processed

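The authors isolated cortical astrocytes with ACSA-2 MicroBeads, made libraries with SMART-Seq v4, trimmed paired reads with Trim Galore 0.6.4 and quantified genes of the mm10 genome with RSEM 1.2.28 and Bowtie2 2.4.1. Their own tests used DESeq2 1.36.0 on counts, which are not used here. The deposited values are TPM per Ensembl gene, 1 table per hemisphere, with each library summing to about 1000000, so that read depth is unknown. The annotation release is not given in the sources used here. Symbols and positions came from GENCODE on GRCm38 for 21856 of 21975 identifiers, and 119 had none.

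Values were tested as log2(TPM + 1) with limma 3.58.1 (R 4.3.3), which differs from the count test of the study since counts were not used, keeping genes that averaged more than 5 TPM in some compared group. Fold changes on this scale understate those of low genes. A call required an unadjusted p under 0.05 and 1.2-fold, and Benjamini-Hochberg adjusted p are given. Members also had two-sided exact permutation tests over every regrouping or sign flip (numpy 2.4.6). Hemispheres were compared by the difference within a mouse, since both libraries came from 1 animal. Over 10235 genes, the deviations of both libraries of a mouse had a median correlation of 0.41 over 17 mice, and 16 were above 0.1. The fits were tested on simulated data.

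The members and gene lists were chosen with earlier results of these data known. Values are given for the 7 members in every group. Listed genes are named where they passed the rule, except for 1 result that is not reported here, and the 5 genes with the highest Pearson's r with Kcnj10 and with Aqp4 are named. Groups come from the sample labels. Each library came from a mouse of its own or from the other hemisphere of one. Alternatives covered pseudocount, filter, scaling, weights, a shared fit, the first digit of the mouse name, the block and each left-out sham or PTE+ library; leaving out PTE- mouse 9_14 was chosen with its low gene number known, and the comparison by first digit was chosen after seeing the data.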

Additional observations from a re-analysis of the deposited data

Results flagged for a closer look

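Single libraries stood apart from the rest of their group in 6 of 42 combinations of gene and group. The measure was the gap to the nearest library as a share of the group's range. For independent values chance alone gives about 1 in 20. The combinations share libraries, and each group holds mouse names beginning with 8 and with 9, so that this rate is only a rough guide. Sham mouse 9_11 had 194.68 TPM of Dtna and 207.07 TPM of Dag1 ipsilaterally, both above every other library. PTE- mouse 9_14 had 42.82 TPM of Dtna ipsilaterally, the lowest of all libraries. PTE- mouse 9_16 had 867.05 TPM of Aqp4 contralaterally, and PTE- mouse 9_20 had 6.11 TPM of Trpv4 ipsilaterally. PTE+ mouse 8_10 had 71.55 TPM of ipsilateral Dag1, below the other PTE+ mice, whose names begin with 9. The difference of Aqp4 between hemispheres was 0.43 larger on the log2 scale in injured than in sham mice (exact permutation p = 0.017), with each of the 12 injured mice above the sham median.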

How the results depend on the processing

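Of the 36 log2 differences of members in the report that were recomputed under the alternatives, 25 had the same direction under every alternative run. Numbers of called members changed as follows. For ipsilateral injured against sham it was 1 and ranged from 0 to 1 with a library left out. For PTE- against sham it was 0, became 1 with median centring, astrocyte reference centring, array weights or the first digit as a term, and ranged from 0 to 1 with a library left out. For PTE+ against sham it was 1, became 0 with quantile normalization and 3 with array weights, and ranged from 0 to 2. For PTE+ against PTE- it was 0, became 1 with array weights and ranged from 0 to 1. Contralaterally it was 0 in each comparison, became 2 with array weights for PTE+ against sham, and ranged from 0 to 1 against sham. Between hemispheres of injured mice it was 1, became 0 with array weights and ranged from 0 to 1. For the hemisphere difference of injured against sham mice it was 1, became 0 with median centring or with no replicate block and 2 with the first digit as a term. For that of PTE+ against PTE- mice it was 0, became 1 with median centring or array weights and ranged from 0 to 2. By first digit the ipsilateral count was 3, became 1 with astrocyte reference centring and 5 with array weights, and ranged from 3 to 5, and the contralateral count ranged from 2 to 3. The block changed no other count of members. Array weights also changed the calls over all genes. Ipsilaterally these rose from 161 to 650 of 10485 for PTE- and from 163 to 1221 of 10447 for PTE+ against sham. They rose from 60 to 441 of 10473 for PTE+ against PTE- and from 2547 to 4451 of 10494 by first digit. Contralateral calls rose from 210 to 1114 of 10640 for PTE+ against sham. For the hemisphere difference of PTE+ against PTE- mice they fell from 330 to 286 of 10683.

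Each log2 difference that reversed was at most 0.186 in size with the settings of the report. With array weights, ipsilateral injured against sham became 0.060 for Kcnj10, 0.037 for Dtna and 0.26 for Dmd, and PTE+ against PTE- became -0.056 for Kcnj16, which was -0.00136 with astrocyte reference centring. Contralateral Aqp4 in injured against sham mice became 0.090 with median centring, 0.074 with astrocyte reference centring and 0.00356 with the first digit as a term. With median centring the hemisphere difference of injured against sham mice became -0.055 for Kcnj10 and -0.044 for Dtna, and ipsilateral Dtna by first digit became -0.049, or -0.21 with astrocyte reference centring. With a library left out, ipsilateral injured against sham ranged from -0.25 to 0.062 for Kcnj10, from -0.045 to 0.39 for Dag1 and from -0.29 to 0.025 for Dmd. Without PTE- mouse 9_14 these were 0.00073 for Kcnj10 and 0.00706 for Dmd. Kcnj16 in PTE+ against PTE- mice ranged from -0.12 to 0.31 and contralateral Aqp4 in injured against sham mice from -0.11 to 0.072. Between hemispheres of injured mice, Kcnj10 ranged from -0.065 to 0.012 and Dmd from -0.0093 to 0.057, and against sham Kcnj10 ranged from -0.066 to 0.32. The causes were not tested. Depth is unknown, and few PTE+ and sham mice limit precision. PTE- mouse 9_14 gave an ipsilateral library alone, so that leaving it out could not change the contralateral and hemisphere comparisons.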
